A study of Caenorhabditis elegans with 2 samples.

Results

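The genes described here, called members below, are 8 genes of Caenorhabditis elegans. Among them skn-1, med-1, med-2, end-1, end-3, elt-2 and elt-7 belong to the pathway that leads from the maternal factor SKN-1 to the intestine. The gene sdz-12, whose tagged protein was precipitated, was listed with them. All were listed by name, out of 19973 protein-coding genes on the nuclear chromosomes of the Ensembl annotation. For each gene, binding calls were taken from 1000 bp upstream to 200 bp downstream of the 5' end of the gene (its promoter window), from the gene body, and at the nearest position at any distance. All 8 genes were found in the annotation.

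SKN-1 is a transcription factor laid down by the mother that acts in the EMS blastomere of the early embryo. There it switches on med-1 and med-2, a pair of near-identical genes for GATA-type factors. The MED proteins turn on end-1 and end-3 in the E cell, the founder of the endoderm, and the END proteins turn on elt-7 and elt-2, whose GATA factors keep intestinal genes active for life. In later stages SKN-1 is best known for its part in the response to oxidative stress. SDZ-12 is a zinc finger protein, and its gene was named as an SKN-1-dependent zygotic transcript.

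The samples were 2 biological replicates of 1 group, and no second condition was compared. Both were whole L4 larvae of mixed sex, aged 71 hours and synchronized by starving hatched L1 larvae after bleaching. Both were of strain OP670, which has the mutation unc-119(tm4063) and the integrated array wgIs670, with sdz-12 joined to TY1, EGFP and 3xFLAG and with unc-119(+). Chromatin was sonicated and precipitated with an antibody against GFP, so the values report where the tagged protein was recovered, in all cell types of the worm together. The strain is a single integrated line, its array adds sdz-12 sequence to the native gene, and reads from either copy align to the same place, so they cannot be told apart.

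The authors deposited 4 lists of calls on ce11, each call with a summit and a signal value, their own score of enrichment. The pooled list and the list of each replicate hold 30000 calls each, background calls included, and the optimal list holds 665 calls, which were the strongest pooled calls. Signals ran from 48.1 to 538 in the pooled list and from 136 to 538 in the optimal list. Ranks count from the strongest call of a list, and signals are comparable only within a list. Read depth is unknown. With 1 group no test between conditions exists, and the members' values are given beside those of all protein-coding genes.

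None of the 8 genes had an optimal call. The optimal list had 0 of 8 members with a summit in the promoter window, against 1.61% of protein-coding genes, and 0 of 8 with a summit in the body, against 1.49%. At these background shares a list of 8 genes would rarely hold one, so the count of 0 does not set these genes apart. In the pooled list 4 of 8 members (skn-1, end-1, end-3 and elt-7) had a summit in the promoter window, against 31.6% of protein-coding genes. The other members, med-1, med-2, elt-2 and sdz-12, had none there in any list. In replicate 1 the count was 3 of 8 (background 32.1%) and in replicate 2 it was 4 of 8 (background 30.9%). Summits of both replicates lay within 200 bp of each other in the windows of end-1, end-3 and elt-7, 3 of 8 members, against 15.3% of protein-coding genes. With so few genes none of these counts can be read as an excess.

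**Figure D1:**
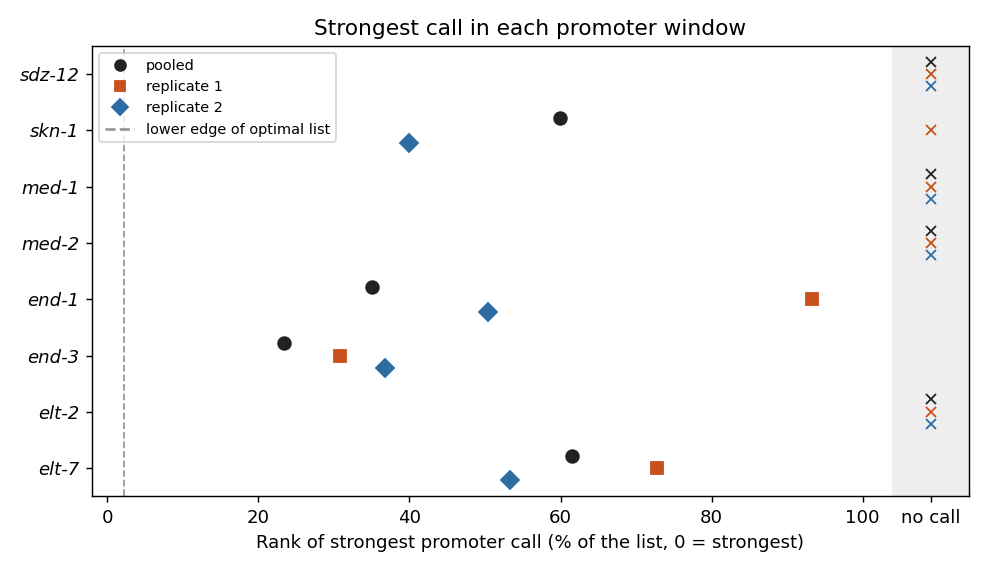
Rank of the strongest call in each gene's promoter window, as a percentage of the list (x axis, 0 is the strongest), for each gene (y axis), in the pooled list (circles) and the lists of replicate 1 (squares) and replicate 2 (diamonds), with crosses for no call. All calls lie right of the dashed line, the lower edge of the 665 optimal calls, and med-1, med-2, elt-2 and sdz-12 have crosses in every list.

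Every pooled member call had a signal below the lowest of the optimal list. In the replicate lists the best member ranks were 892 in replicate 1 and 1276 in replicate 2, both in skn-1. The 15 pooled calls in windows or bodies of the 8 genes ranked between 2055 and 27975. The strongest in a promoter window, at end-3, had 58.7% of the lowest optimal signal, and the strongest of any, in the body of skn-1, had 77.9%. The authors' −log10 q-value was at most 0.514 for these pooled calls, against at least 1.14 for every optimal call. In the replicate lists it was at most 0.88 for the 18 member calls of replicate 1 and at most 0.934 for the 16 of replicate 2. The lists are filled to a fixed length with background, so a call at such a rank is a local maximum of signal and not by itself a binding site.

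The regulator at the top, skn-1, had more summits in its body than most genes of its length. The gene (WBGene00004804, chrIV:5651039-5660384, minus strand) spans 9.35 kb, and its annotated transcripts have 4 different 5' ends. Its body held 9 pooled summits, 10 in replicate 1 and 9 in replicate 2. Among 974 protein-coding genes of 80% to 125% of its length, the median was 3 pooled summits and 97.8% had fewer. The corresponding shares were 98.9% in replicate 1 and 97.3% in replicate 2, so the body ranked high in both replicate lists. Within 10 kb on either side of its 5' end lay 17 pooled calls, against a median of 6 over protein-coding genes, and 99.5% of genes had fewer. The 9 pooled summits of the body are among these 17, so the 2 counts are not separate observations. These are counts of calls and not of bound protein, since every call ranked outside the optimal list.

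The strongest pooled call in skn-1 lay 8232 bp inside the 5' end, in a coding exon near the 3' end of the gene, at rank 2055 with signal 106. Replicate 1 had a call 8210 bp inside at rank 892, and replicate 2 had one at 8232 bp at rank 11415, so the site was strong in replicate 1 and middling in replicate 2. The reverse held for an intronic call 2660 bp inside the gene, at pooled rank 4951, which ranked 10841 in replicate 1 (at 2667 bp) and 1276 in replicate 2 (at 2744 bp). A further intronic call, 1194 bp inside the gene, had pooled rank 5355, with rank 22376 in replicate 1 and rank 2512 in replicate 2. Of the 10 summits of replicate 1 in the body, 6 had a summit of replicate 2 within 200 bp. The sequence at the strongest call is shown because it is the strongest member call of the pooled list. It lies at chrIV:5652102-5652202 and is printed on the coding strand of skn-1. Its GC content is 50.5%, and the words GTATAC and TGATAA, described with the later genes, are not in it. It does hold ATCAT, also described below and not marked here, a word found in 94.9% of all promoter windows.
skn-1 strongest pooled call: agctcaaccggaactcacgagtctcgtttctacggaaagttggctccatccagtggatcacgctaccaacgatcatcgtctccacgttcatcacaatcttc

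In its promoter window, at the outermost annotated 5' end, skn-1 had a pooled call weaker than most of those in its body. The pooled summit lay 29 bp inside the gene, at rank 17990 with signal 60.2, and 35% of protein-coding genes with a promoter call had a weaker one. Replicate 2 had a summit at -5 bp (rank 11978, signal 36.4, negative distances being upstream). In that list 53.6% of genes with a promoter call had a weaker one. Replicate 1 had none in the window, but had a summit just outside it at -1140 bp (rank 5441, signal 48.7). The pooled list also had a summit just outside the window, at -1143 bp. Nearer the shorter transcripts, a pooled summit in a coding exon lay 240 bp upstream of a transcript's 5' end, at rank 6177, with replicate 1 at rank 14446 and replicate 2 at rank 4137. The intronic call 5925 bp inside the gene also lay in an intron of clec-178, a gene nested within skn-1, and ranked 25413.

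**Figure D2:**
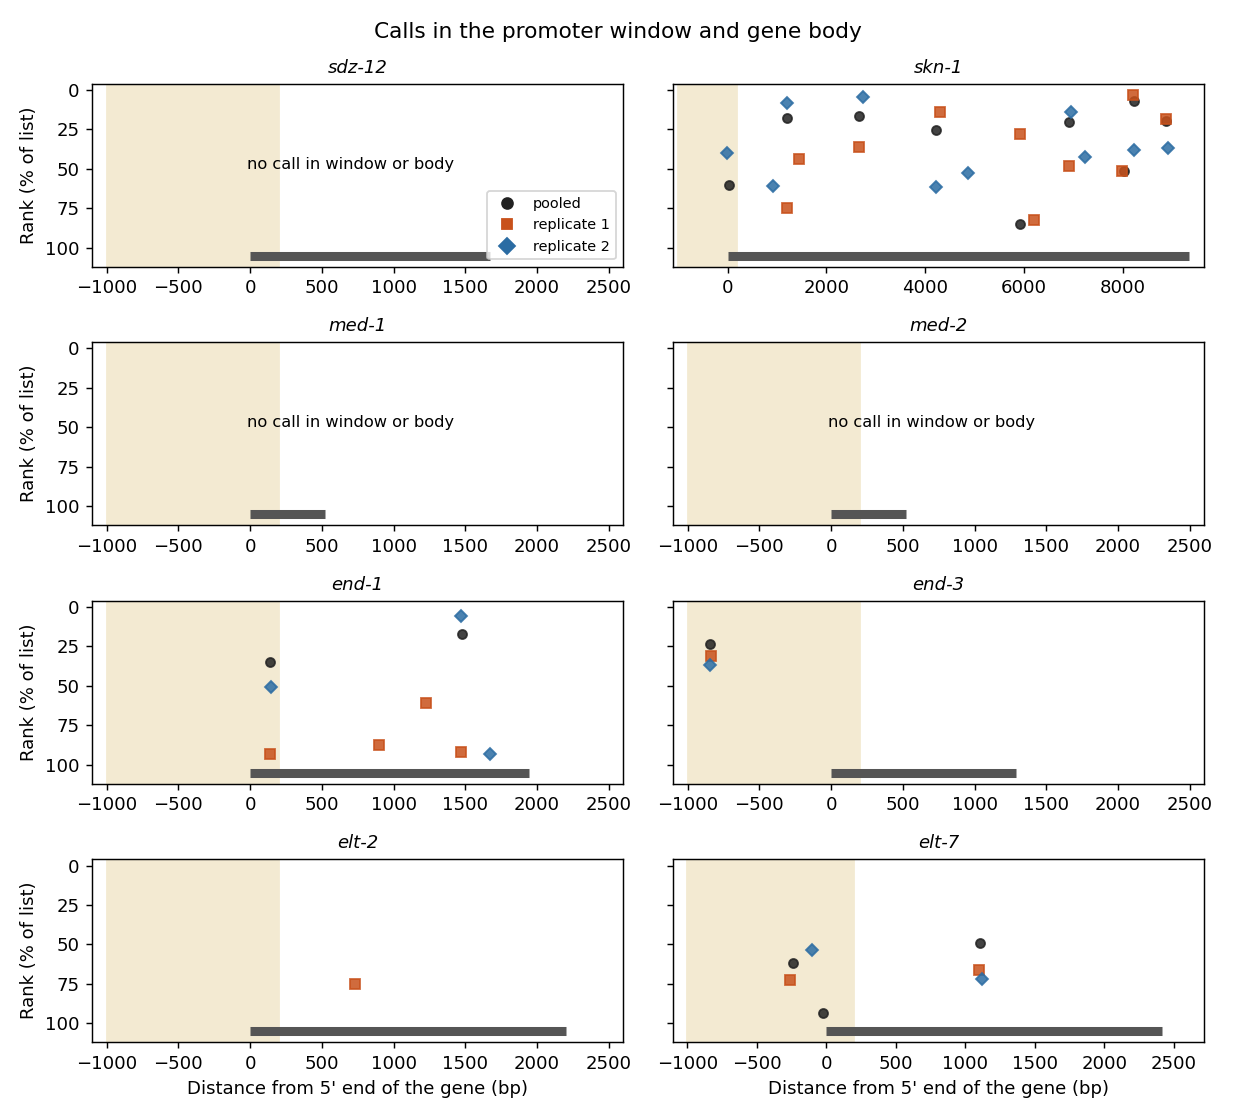
Calls in the promoter window and body of each gene, by distance from the 5' end in bp (x axis) and rank as a percentage of the list (y axis, strongest on top), in the pooled list and both replicates. Shading marks the promoter window and the dark bar the gene; the body of skn-1 holds 9 pooled summits, and the panels of sdz-12, med-1 and med-2 are empty.

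The direct targets of SKN-1, med-1 and med-2, had no call in the promoter window or the body in any list. They encode GATA-type factors that specify the fate of EMS descendants. For med-1 (WBGene00003180, chrX:12430609-12431133, plus strand) the nearest pooled summit lay 5310 bp upstream (rank 26575), the nearest of replicate 1 lay 5121 bp downstream (rank 12057) and that of replicate 2 lay 7094 bp downstream (rank 16841). The summits lay on different sides in different lists, and 89.2% of protein-coding genes were nearer to a pooled call. For med-2 (WBGene00003181, chrIII:6884503-6885027, plus strand) the nearest pooled summit lay 919 bp inside from the 5' end and so past the 3' end of the gene, at rank 19791. Replicate 1 had it at 946 bp and rank 9777, and the nearest of replicate 2 lay at 2982 bp and rank 19227. With 44.8% of genes nearer to a pooled call, med-2 stood near the middle of all genes.

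The med genes are so alike that short reads cannot always be placed. Their bodies were identical at 512 of 525 positions (97.5%), and the 300 bases before the 5' ends had 90.8% identity. Over the 1000 bases before the 5' ends the identity was lower, at 66.0%. Of the 31-base words in each body 45.3% occur once in the genome, and in each promoter window 85.7% do, against a median of 100% over protein-coding genes for both. Read length and the handling of reads that align to several places are not stated. The part of this in the missing calls was not tested.

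The 150 bases before each 5' end are shown because they carry the clustered sites of SKN-1 for which these promoters are known. Capitals mark the words GTCAT and ATCAT, the core of the SKN-1 site, on either strand, where matches overlap. The med-1 stretch is chrX:12430459-12430608 and the med-2 stretch chrIII:6884353-6884502, both on the plus strand, and each holds 1 match to GTCAT and 5 to ATCAT.
med-1 upstream: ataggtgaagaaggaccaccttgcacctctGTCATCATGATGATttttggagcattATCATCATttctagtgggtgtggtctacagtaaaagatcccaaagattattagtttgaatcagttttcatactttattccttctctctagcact
med-2 upstream: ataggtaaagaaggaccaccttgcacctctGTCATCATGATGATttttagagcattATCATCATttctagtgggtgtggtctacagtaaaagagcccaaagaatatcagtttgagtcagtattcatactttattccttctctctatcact
Over the whole promoter window med-1 had 9 and med-2 had 11 matches to ATCAT, against a median of 3. Of 19970 windows of the same length, 94.9% hold that word at least once, 2.21% hold 9 or more and 0.461% hold 11 or more. The word GTCAT had 3 matches in each, against a median of 2, and 83.9% of windows hold it.

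In the next tier, end-1 and end-3 carried the members' strongest promoter calls in the pooled list. In the replicate lists end-3 stayed first, while end-1 ranked below elt-7 in replicate 1 and below skn-1 in replicate 2. They encode GATA factors of the E lineage and lie on chromosome V, with 5' ends at 13985128 and 14014695. For end-3 (WBGene00001311, chrV:14014695-14015980, plus strand) the summit lay at -844 bp in the pooled list, at -836 bp in replicate 1 and at -842 bp in replicate 2. Its ranks were 7016 in the pooled list (signal 80.0), 9226 in replicate 1 (signal 42.5) and 11036 in replicate 2 (signal 37.3). The position thus recurred and the rank stayed in the upper part of each list. Of protein-coding genes with a promoter call, 70.1% had a weaker one in the pooled list, 61.7% in replicate 1 and 56.5% in replicate 2. The body of end-3 held no call in any list.

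For end-1 (WBGene00001310, chrV:13985128-13987074, plus strand) the promoter call lay inside the gene, in a coding exon, at 137 bp in the pooled list, 138 bp in replicate 1 and 144 bp in replicate 2. The pooled rank was 10512 (signal 71.8), while replicate 1 had rank 27975 (signal 28.5) and replicate 2 rank 15131 (signal 33.6). The position recurred, but the call was near the bottom of replicate 1, where 5.44% of called genes had a weaker one. A stronger call lay in an intron 1476 bp inside end-1, at pooled rank 5228 (signal 86.0). It too was uneven, with rank 27642 in replicate 1 and rank 1808 in replicate 2. The body of end-1 held 2 pooled summits, 4 in replicate 1 and 3 in replicate 2, and 84.7%, 99.8% and 96.9% of genes of like length had fewer in these lists.

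The calls did not lie on the sites through which the MED proteins are known to act at these genes. The word GTATAC, the core of the MED site and its own reverse complement, occurs 2 times in the end-1 window, at -193 and -138 bp, and 4 times in that of end-3, at -232, -183, -142 and -79 bp. Among all windows of this length 13.4% hold the word, 1.33% hold 2 or more, and 7 of 19970 hold 4 or more. The pooled summit of end-1 lay 275 bp from the nearest match and that of end-3 lay 612 bp from it. In the other 6 members the word was not found in the window. The 240 bases before each 5' end are shown for these matches, in capitals, at chrV:13984888-13985127 for end-1 and chrV:14014455-14014694 for end-3. The 101 bases centred on the pooled end-3 summit, chrV:14013801-14013901, follow them for comparison and hold neither GTATAC nor TGATAA.
end-1 upstream: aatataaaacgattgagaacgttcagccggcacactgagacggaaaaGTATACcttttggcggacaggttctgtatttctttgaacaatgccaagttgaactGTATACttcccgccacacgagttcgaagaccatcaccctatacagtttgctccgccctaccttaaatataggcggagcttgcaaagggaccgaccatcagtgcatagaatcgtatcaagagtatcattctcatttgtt
end-3 upstream: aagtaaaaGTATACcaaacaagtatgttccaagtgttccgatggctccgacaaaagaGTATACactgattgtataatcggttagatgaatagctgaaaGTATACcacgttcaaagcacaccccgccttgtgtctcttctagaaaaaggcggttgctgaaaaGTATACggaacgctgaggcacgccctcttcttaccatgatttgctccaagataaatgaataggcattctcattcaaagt
end-3 pooled promoter call: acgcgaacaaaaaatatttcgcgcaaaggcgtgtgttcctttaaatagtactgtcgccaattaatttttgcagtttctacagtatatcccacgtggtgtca

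Outside the members, 3 protein-coding genes were taken whose strongest promoter calls had log2 signals most similar to those of end-3 in both replicates. They were F29B9.5, Y54G2A.41 and R01B10.3, at distances from end-3 of 0.01, 0.023 and 0.024 on the log2 scale. They were found among 3648 genes with a promoter call in both replicates, and the likeness rests on 2 libraries.

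The intestinal factors elt-7 and elt-2 differed in their calls. The elt-7 gene (WBGene00015981, chrV:4770670-4773086, plus strand), whose product acts alongside ELT-2 in the intestine, had pooled summits at -241 bp (rank 18442, signal 59.6) and at -25 bp (rank 27975, signal 49.9). Replicate 1 had 1 summit in the window at -257 bp (rank 21835) and replicate 2 had 1 at -103 bp (rank 15986), 154 bp apart. The calls were low in every list, and 33.6% of genes with a pooled promoter call had a weaker one. A call in a coding exon lay 1109 bp inside the gene and 59 bp upstream of the gene's second annotated transcript 5' end, at pooled rank 14778. Replicate 1 had it at rank 19874 and replicate 2 at rank 21669. The elt-7 window had 1 match to TGATAA, at -78 bp, a word found in 72% of all windows. The match lay 163 bp from the upper pooled summit and 53 bp from the lower one. It lay 179 bp from the summit of replicate 1 and 25 bp from that of replicate 2. The sequence at the upper pooled summit, chrV:4770379-4770479, is shown because it is upstream of the gene. It holds neither GTATAC nor TGATAA, but it holds GTCAT, not marked here, a word found in 83.9% of all windows.
elt-7 pooled promoter call: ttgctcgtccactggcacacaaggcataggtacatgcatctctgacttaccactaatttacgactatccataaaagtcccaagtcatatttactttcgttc

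For elt-2 (WBGene00001250, chrX:10481240-10483441, plus strand), the main GATA factor of the differentiated intestine, no call lay in the promoter window in any list. Its body held 1 call of replicate 1, in an intron 728 bp inside (rank 22452, signal 31.5), and none in the pooled list or in replicate 2. The nearest pooled summit lay 3206 bp from the 5' end, beyond the gene, at rank 27726. Upstream, the first summit lay at -45354 bp in the pooled list, at -45349 bp in replicate 2 and at -14815 bp in replicate 1. The gene therefore sat at the edge of a stretch of 48.6 kb without a pooled summit, and 1.63% of protein-coding genes lay in a stretch as long. In replicate 1 the stretch was 15.5 kb, and 12.7% of genes lay in one as long. Its promoter window had 6 matches to TGATAA, the word bound by intestinal GATA factors, against a median of 1, and 99.2% of windows had fewer. The word itself is in 72% of all windows. The 150 bases before the 5' end, chrX:10481090-10481239, are shown with GATAA in capitals, as part of a promoter without a call, and hold 1 such match; most matches lie farther upstream or inside the gene.
elt-2 upstream: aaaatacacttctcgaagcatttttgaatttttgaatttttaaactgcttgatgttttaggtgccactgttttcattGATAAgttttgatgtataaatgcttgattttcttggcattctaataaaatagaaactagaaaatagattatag

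**Figure D3:**
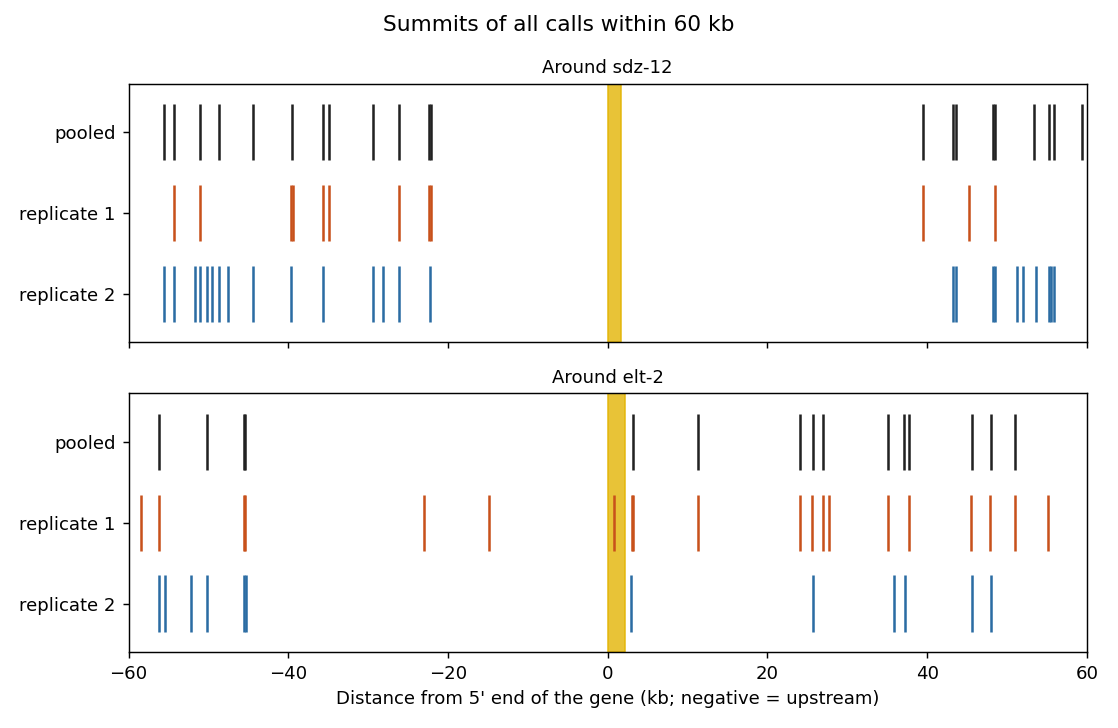
Summits of all calls within 60 kb of the 5' end of sdz-12 (top) and elt-2 (bottom), by distance in kb (x axis, negative is upstream), in the pooled list and both replicates (rows). The yellow band is the gene; around sdz-12 all rows are empty from -22180 bp to 39426 bp, and around elt-2 replicate 1 has summits where the other rows are empty.

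The gene of the precipitated protein itself, sdz-12, lay in one of the longest stretches of the genome without a call. The gene (WBGene00017406, chrII:3730152-3731823, minus strand) had no call in the promoter window or body in any list. The nearest summit was upstream, at -22180 bp in the pooled list (rank 752, signal 132), at -22184 bp in replicate 1 (rank 797) and at -22261 bp in replicate 2 (rank 2751). On the other side the nearest summit lay 39427 bp away in the pooled list, 39426 bp in replicate 1 and 43282 bp in replicate 2. The upstream border was thus nearly the same in both replicates, while the downstream border differed between them. The stretch was 61.6 kb long in the pooled list, 61.6 kb in replicate 1 and 65.5 kb in replicate 2, against median gaps of 1.82, 1.96 and 1.8 kb between neighbouring summits. Counted from the longest of 29994 gaps, it stood at place 15 in the pooled list, place 7 in replicate 1 and place 22 in replicate 2.

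Longer gaps hold more genes, so the same was read per gene. Of protein-coding genes, 0.937% lay in a pooled gap as long as that of sdz-12, 0.646% in replicate 1 and 1.4% in replicate 2. Measured as distance, 0.646% of protein-coding genes were as far or farther from a pooled call. No call lay within 10 kb of sdz-12 in any list, as held for 3.5% of genes in the pooled list, 1.98% in replicate 1 and 4.31% in replicate 2.

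**Figure D4:**
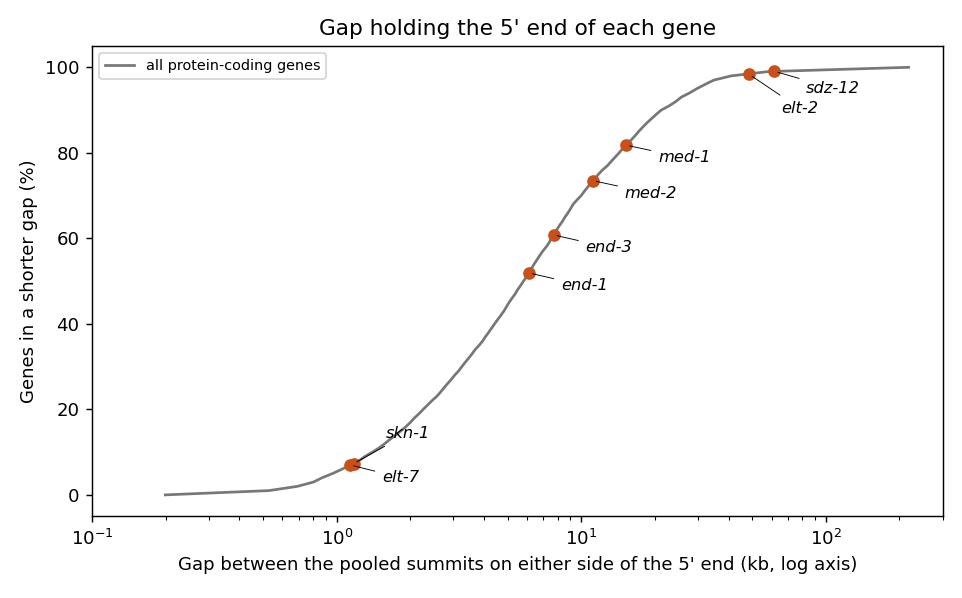
Length of the gap between the pooled summits on either side of a gene's 5' end in kb (x axis, log scale) against the percentage of protein-coding genes in a shorter gap (y axis). The line covers the 19960 protein-coding genes that lie between 2 pooled summits and the points are the 8 members; sdz-12 at 61.6 kb and elt-2 at 48.6 kb are near the upper end, skn-1 and elt-7 near the lower.

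The stretch around sdz-12 holds the 5' ends of 23 protein-coding genes. Among these were 5 srx and 2 srh chemoreceptor genes, 5 fbx genes of the F-box families and sdz-11, another gene named as an SKN-1-dependent transcript. In the stretch 94.8% of 31-base words were unique, against 91.3% over the genome, and in the promoter window and body of sdz-12 all of them were. The extent of the genomic fragment in the array is not given in the labels. Whether the added copies, in the precipitated or the control library, took part in the absence of calls was not tested. At unc-119, also carried by the array, the body held 4 pooled summits, 4 of replicate 1 and 2 of replicate 2. At least 1 pooled summit in the body was found in 52.0% of protein-coding genes of all lengths. The count of 4 was not compared with genes of like length. The pooled summit nearest its 5' end, at 511 bp, had rank 17683, and that of replicate 1, at 510 bp, had rank 3019. The promoter window held 1 pooled call, 0 of replicate 1 and 1 of replicate 2. Whether the array took part in these calls was not tested either. The sequence before sdz-12, chrII:3731824-3731963 read on the minus strand, is shown because it is the promoter of the factor's own gene and lacks a call. Its 140 bases have GATAA in capitals 2 times, and the window had no match to TGATAA or GTATAC.
sdz-12 upstream: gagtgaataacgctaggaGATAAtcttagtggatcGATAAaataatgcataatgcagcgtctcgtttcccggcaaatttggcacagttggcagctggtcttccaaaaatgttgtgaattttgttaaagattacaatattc

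Among the 8 genes, summits in gene bodies were most numerous in skn-1. In the pooled list 3 of 8 members (skn-1, end-1 and elt-7) had a summit in the body, against 52.0% of protein-coding genes. In replicate 1 it was 4 of 8, with elt-2 as the fourth (background 51.9%), and in replicate 2 it was 3 of 8 (background 52.1%). Most members are short, and 78.8% of genes of the length of med-1 and 56.2% of those of the length of sdz-12 have 0 pooled summits in the body. Calls per kb of body were 0.96 for skn-1, 1.03 for end-1 and 0.41 for elt-7 in the pooled list, against 0.34 over all protein-coding genes.

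**Figure D5:**
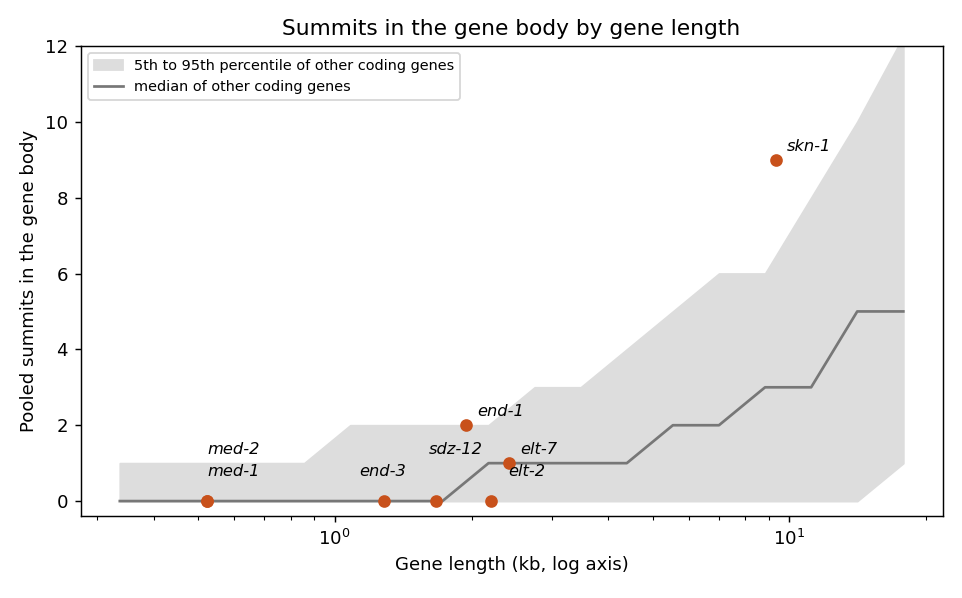
Pooled summits in the gene body (y axis) by gene length in kb (x axis, log scale), with the median of the other protein-coding genes (line) and their 5th to 95th percentile (grey band). The point of skn-1 at 9 summits lies above the band, end-1 at 2 on its upper edge, and the other members at 1 or 0 within it.

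The nearest optimal calls were 40.6 kb or more away. From the 5' ends of the members the median distance to an optimal summit was 107 kb, against 64.3 kb over protein-coding genes, with quartiles of 25.6 and 136 kb. For end-3 (40.6 kb) and end-1 (70.1 kb) it was the same optimal call on chromosome V, of rank 108, which lay in no promoter window or gene body. For skn-1 it was 79.4 kb away at rank 574, in promoter windows of piRNA genes, among them 21ur-6078. For elt-7 it was 81.3 kb away, at K03B4.1 (rank 194). For med-1 (133 kb, rank 234) and elt-2 (336 kb, rank 113) it lay at tRNA genes, and for sdz-12 (210 kb, rank 577) at a tRNA gene, W09G10.9 and col-72. For med-2 it was 278 kb away, in no window or body. The nearest pooled calls had a median distance of 881 bp from the members, against 1104 bp over all genes. In replicate 1 the medians were 891 bp for the members and 1087 bp over all genes, and in replicate 2 the order was the other way, with 1847 bp for the members and 1122 bp over all genes.

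The wider pathway was taken in 6 lists. Among 19 maternal and Wnt regulators of EMS, promoters of 2 held an optimal summit (background 1.61%), namely mex-1, whose product acts on maternal RNAs in early blastomeres (rank 454, -938 bp), and mom-1, of the Wnt pathway (rank 504, -834 bp). The mex-1 summit lay nearer the 5' end of W03C9.5, and that of mom-1 lay within a tRNA gene and nearer lev-9, so position does not assign either to the gene of the list. Their ranks also differed between replicates, with mex-1 at 261 in replicate 1 and 2790 in replicate 2, and mom-1 at 4085 and 338. In the pooled list 7 of these 19 genes had a promoter summit (36.8%, background 31.6%).

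The other 5 lists had no optimal summit in a promoter window. Of 8 MS and mesoderm factors 4 had a pooled one. They were led by tbx-2 (rank 3565), a T-box factor, and hnd-1 (rank 11666, no promoter call in replicate 2). Of 6 other GATA factors 2 had a pooled one, the neighbours elt-6 (rank 4396) and egl-18 (rank 23203). Of 32 other sdz genes 11 had a pooled one (34.4%), led by sdz-27 (rank 5859) and sdz-4 (rank 12234). In replicates 1 and 2 the strongest promoter calls ranked 18501 and 2923 for sdz-27, and 28890 and 23572 for sdz-4. The stress side of SKN-1 gave 5 of 16 in the pooled list (31.2%). These were led by nsy-1 (rank 7310), a kinase of the p38 pathway that activates SKN-1, and gst-7 (rank 9319), a glutathione transferase gene. Of the same list, dhs-8 had a promoter call at rank 191 in replicate 2 and none in replicate 1 or the pooled list.

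Of 23 intestinal genes 7 had a pooled promoter summit (30.4%). The strongest was that of asp-1, an aspartyl protease gene, at 135 bp inside the gene and rank 874 (signal 128), just below the optimal list. It was uneven between replicates, at rank 4517 in replicate 1 and rank 228 in replicate 2. The yolk protein gene vit-2 had rank 3882, rank 989 in replicate 1 and no promoter call in replicate 2. The shares of the lists of 16 or more genes ran from 30.4% to 36.8%, close to the 31.6% of all protein-coding genes.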

How the data were processed

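Calls came from 2 anti-GFP ChIP-seq libraries of 1 group. The authors called intervals per replicate and on pooled alignments, each against a control file, and derived the optimal list by IDR, which compares ranks between replicates (per the labels and the readme texts). Caller, read length and thresholds are not stated in them. The deposited signal value is the authors' score of enrichment with unknown scaling, and the deposited −log10 q-value served to break ties in rank. Genes came from Ensembl release 115 (WBcel235, the build of ce11) and sequence from RefSeq's copy, and 0 calls lay past a chromosome end.

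Calls were placed by summit. The 5' end of a gene is its outermost annotated one. Word matches were sought on both strands in windows of 19970 protein-coding genes. Uniqueness is the share of 31-base words found once on the 6 nuclear chromosomes. Of Python 3.11.15, NumPy 2.4.6, pandas 2.3.3 and matplotlib 3.10.9, the first 3 did the calculations and the last the figures, and identities came from global alignments with Biopython 1.88. Window placement was tested on simulated data. Alternatives changed the window, 5' end, assignment, overlap, list and its length. The members, lists and the rule for named genes were chosen with earlier results of these data known. The rule named all members, from each wider list the genes with an optimal summit or else the 2 strongest, 3 genes like the leading member, unc-119, and genes at the nearest optimal calls.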

Additional observations from a re-analysis of the deposited data

How the results depend on the processing

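The optimal list had 0 members in promoter windows under each of the 8 alternatives tried: 500 or 2000 bp upstream, any transcript's 5' end, interval overlap, nearest 5' end only, the stronger 50% of the list, and the 665 strongest calls of either replicate alone. The pooled count of 4 was 2 (end-1 and end-3) in the stronger 50% of the list, where 17.6% of genes had a call, 3 with 500 bp upstream, which leaves out end-3, and 3 to 4 with 1 replicate left out. Replicate 1 alone lacked skn-1. Protein-coding genes with a pooled promoter summit numbered 9474 with 2000 bp upstream and 3509 in the stronger 50%, where fewer calls are counted, and 6166 to 6412 with 1 replicate left out. The median distance to an optimal summit was 205724 bp in the stronger 50%, and 75690 to 134139 bp with 1 replicate left out. The body count stayed at 3 to 4. The rank of the end-1 promoter call went to 93.2% of the list without replicate 2, against 35% as reported. That of skn-1 went to 24.9% of the list with 2000 bp upstream or interval overlap and to 20.6% with any transcript's 5' end, against 60% as reported. No paired analysis was possible because there is 1 group. Read depth is unknown, so the size of site that these libraries could have missed was not measured.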
